A study of Zea mays with 18 samples.

Results

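The maize genes mn1 (GRMZM2G119689), SWEET4c (GRMZM2G137954) and sut1 (GRMZM2G034302) act in sugar entry into the kernel, and their expression was followed through the first days of endosperm development. They were chosen by gene identifier and make up 3 of the 38300 genes in the table, with 1 row each. The reference table of a later B73 assembly gives the names mn1 and sut1 for these identifiers, while the name SWEET4c came with the choice of genes. All samples were of the inbred line B73, grown in a greenhouse, and were sequenced from tissue collected by laser-capture microdissection, which cuts chosen cells from thin sections. The groups were the embryo at 4 days after pollination (DAP), the central cell at 0 DAP and the endosperm at 1, 2, 3 and 4 DAP. Each of these 6 groups had 3 libraries, which gives 18. The central cell is the cell of the embryo sac that becomes the endosperm once fertilized. The ears were unfertilized or self-pollinated, and each library pooled sections from several kernels of 1 ear, so the tests below measure the spread between ears together with that of the amplification. Any difference shared by libraries of the same replicate number is part of that spread too, as no block was used.

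Sucrose reaches the base of the kernel through maternal tissue and is taken up by the basal endosperm transfer layer, a layer of cells with ingrown walls. The gene mn1, named after the miniature seed mutant, encodes a cell wall invertase (INCW2) that splits sucrose into glucose and fructose outside these cells. SWEET4c is a hexose transporter of the SWEET family, known in maize for moving such hexoses across the transfer layer during seed filling. The sucrose transporter sut1 carries sucrose into cells together with protons and is known in maize mainly for loading the phloem in leaves.

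Values are in CPM, the reads of a gene scaled to a common library size with the authors' normalization factors. They are not corrected for gene length, so levels are compared between groups and not between genes. Recovered read totals ran from 7688120 to 124078873, and the 2 shallowest libraries were replicate 1 at 1 DAP, with that lowest total, and replicate 1 of the embryo, with 9572961. A count of 0 allows up to 3 reads, worth 0.0263 to 0.335 CPM, and this limit and the intervals on reads cover counting error only. The 6 embryo markers summed to 56.8 to 114 CPM in the embryo, against 0.623 to 1.79 CPM in the 4 DAP endosperm. The 5 markers of the embryo-surrounding region, an endosperm tissue, also stood high in the embryo libraries, at 473 to 890 CPM against 42.5 to 255 CPM in the 4 DAP endosperm. Of the 4 endosperm markers, only fie1 was far lower in the embryo, with 0.711 to 5.16 CPM against 73.2 to 95.9 CPM in the 4 DAP endosperm. The marker pbf1 (GRMZM2G146267) had 69.2 to 105 CPM in the embryo and 67.5 to 97.6 CPM in the 4 DAP endosperm. It stood at 49.0 to 137 CPM in all 18 libraries, the central cell included, so it did not mark the endosperm here. A second gene named pbf1, GRMZM2G146283, is also among the 4 markers. That gene had 0.0397 to 0.266 CPM in the embryo and 0.135 to 0.720 CPM in the 4 DAP endosperm. The marker sh2 was higher in every embryo library than in any 4 DAP endosperm library. The 4 markers summed to 83.1 to 114 CPM in the embryo and 149.9 to 175.4 CPM in the 4 DAP endosperm. In bulk samples such as these, fewer cells of a type and less RNA per cell cannot be told apart. The RNA of the embryo and of the 0 to 2 DAP samples was quantified by its 18S band, and the labels name this for no other sample, which cannot be told apart from the stages.

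The invertase gene mn1 was at or near 0 CPM through 3 DAP and was present in all 3 libraries of the 4 DAP endosperm. It had 0.0831, 0.0742 and 0 CPM at 0 DAP, 0 CPM in all 3 libraries at 1 DAP, and 0, 0 and 0.102 CPM at 2 DAP. It had 0.0165, 0 and 0 CPM at 3 DAP and 23.1, 11.6 and 5.81 CPM at 4 DAP. In means, mn1 had 13.5 ± 8.80 CPM (SD, n = 3) at 4 DAP. Every 4 DAP library stood above every earlier one. Such a gap, in either direction, was seen for 22.9% of genes tested between 4 and 3 DAP, 40.2% between 4 and 2 DAP and 50.3% between 4 and 0 DAP. The stages before 4 DAP overlapped or differed by a few reads. In reads, the 3 libraries together held 12 at 0 DAP, 0 at 1 DAP, 9 at 2 DAP, 1 at 3 DAP and 3959 at 4 DAP. With 1 read at 3 DAP, the pooled ratio of 4 DAP over 3 DAP was 2809, with an exact 95% interval of 504 to 110967.

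Changes were tested with limma on log2(CPM + 1), a scale that understates the change of low genes, and called at an adjusted p below 0.05 over 31783 genes. On this scale mn1 rose by 3.66 ± 0.30 (SE) at 4 DAP relative to 3 DAP (limma, adjusted p = 3.46e-07), where 1.67% of all genes tested were called higher. Relative to 0 DAP it rose by 3.60 ± 0.30 (limma, adjusted p = 7.28e-08), where 17.5% of genes were called higher, and relative to 2 DAP by 3.63 ± 0.30 (limma, adjusted p = 2.27e-07), where 9.5% were. A gene was tested when at least 3 libraries reached 1 CPM, and mn1 did so only through the 3 libraries of the 4 DAP endosperm. It therefore had to differ there, and these calls describe the values above without adding to them. Its earlier steps were not called (limma, adjusted p = 0.904 for 1 against 0 DAP, 0.942 for 2 against 1 DAP and 0.994 for 3 against 2 DAP).

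**Figure D1:**
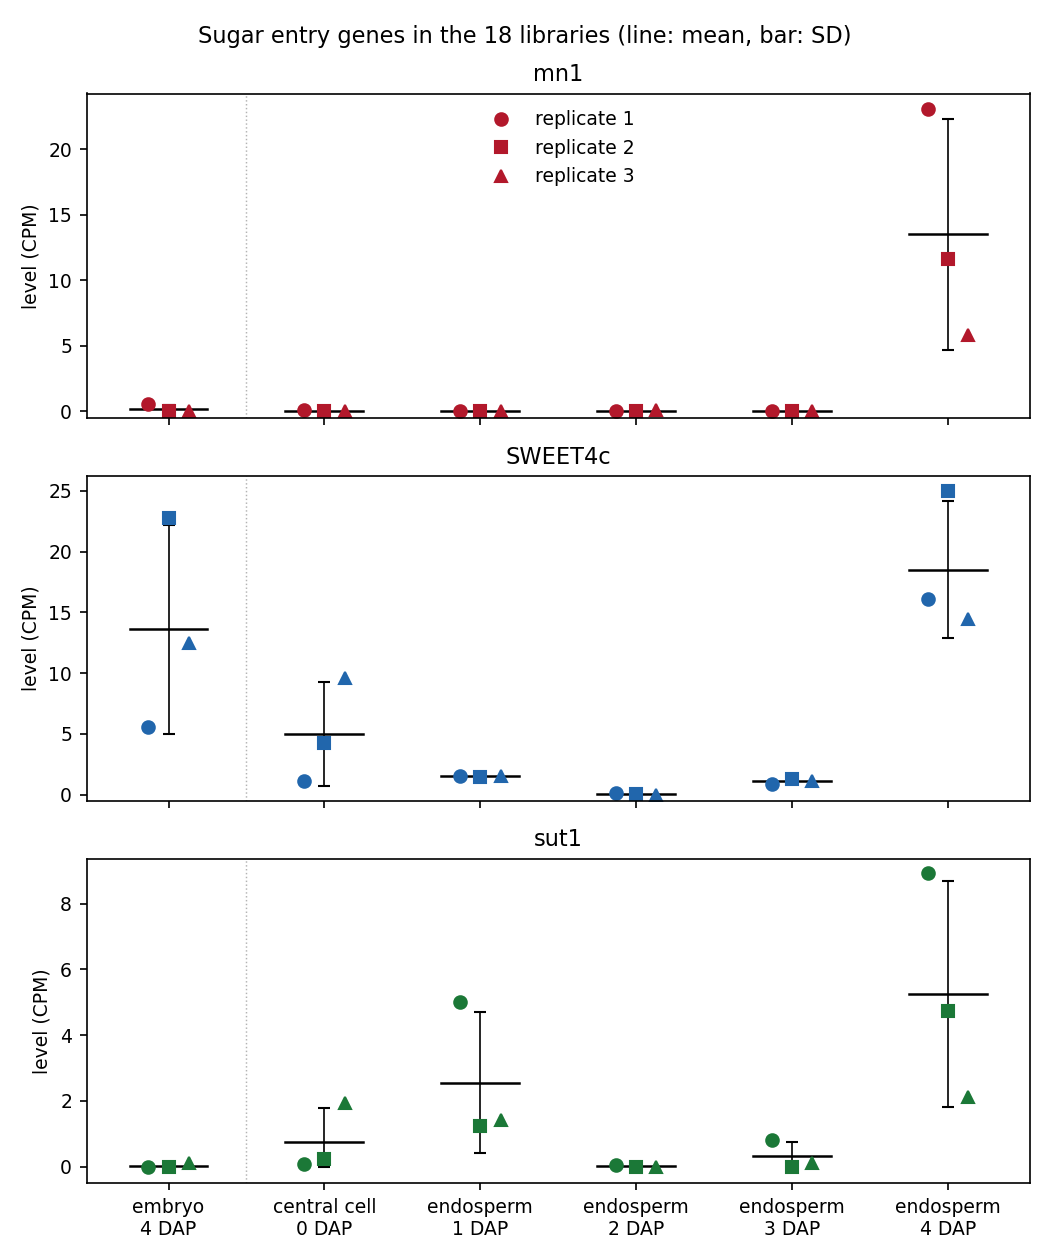
CPM of mn1, SWEET4c and sut1 in every library (points), with the group mean and SD (lines and bars, cut at 0), for the 4 DAP embryo and then the stages 0 to 4 DAP. For each gene all 3 libraries at 4 DAP lie above all 3 libraries at 3 DAP, and in the embryo SWEET4c alone reaches the 4 DAP range, with a mean of 13.6 CPM.

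SWEET4c was already present in the central cell, was lowest at 2 DAP and was highest at 4 DAP. It had 1.15, 4.22 and 9.55 CPM at 0 DAP, 1.56, 1.46 and 1.52 CPM at 1 DAP, and 0.115, 0.0285 and 0 CPM at 2 DAP. It had 0.875, 1.26 and 1.13 CPM at 3 DAP and 16.1, 25.0 and 14.5 CPM at 4 DAP. The stage means, from low to high, were 0.0477 ± 0.0597 CPM at 2 DAP, 1.09 ± 0.198 at 3 DAP, 1.51 ± 0.0536 at 1 DAP, 4.97 ± 4.25 at 0 DAP and 18.5 ± 5.65 at 4 DAP (SD, n = 3 each). The 4 DAP libraries stood above all earlier ones, and the 0 and 1 DAP libraries overlapped. The 2 DAP value rests on 14 reads in the 3 libraries together, against 199 at 1 DAP.

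SWEET4c rose by 3.19 ± 0.46 (SE) on the log2 scale at 4 DAP relative to 3 DAP (limma, adjusted p = 0.000423), with a ratio of mean CPM of 16.97. Relative to the central cell it rose by 1.95 ± 0.46 (limma, adjusted p = 0.00284), a ratio of 3.72, and relative to 2 DAP by 4.18 ± 0.46 (limma, adjusted p = 6.45e-06). The 2 DAP libraries lay below the 1 DAP libraries without overlap, which held for 36.4% of genes, but the log2 difference of -1.26 ± 0.46 was not called (limma, adjusted p = 0.0603). edgeR on the recovered reads did call that difference (adjusted p = 0.00138), as it did the 3 DAP level against 2 DAP (adjusted p = 0.0103), where limma gave 0.99 ± 0.46 (adjusted p = 0.359). At 1 DAP against 0 DAP the log2 difference was -0.97 ± 0.46 and was not called (limma, adjusted p = 0.146). Without replicate 1 at 0 DAP, the lowest of that stage, it was -1.56 and was called (limma, adjusted p = 0.0145), and DESeq2 called it with all libraries (log2 -1.72, adjusted p = 0.0400).

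The sucrose transporter sut1 was detected at 0 and 1 DAP, was at or near 0 CPM at 2 DAP and had its highest mean at 4 DAP. It had 0.0693, 0.247 and 1.93 CPM at 0 DAP, 5.02, 1.23 and 1.42 CPM at 1 DAP, and 0.0478, 0 and 0 CPM at 2 DAP. It had 0.826, 0 and 0.109 CPM at 3 DAP and 8.92, 4.72 and 2.11 CPM at 4 DAP. The stage means, from low to high, were 0.0159 ± 0.0276 CPM at 2 DAP, 0.312 ± 0.449 at 3 DAP, 0.747 ± 1.02 at 0 DAP, 2.55 ± 2.14 at 1 DAP and 5.25 ± 3.44 at 4 DAP (SD, n = 3 each). The 4 DAP libraries overlapped those of 1 DAP, and the 0 DAP libraries overlapped those of 1 and 3 DAP. The highest 1 DAP value came from the library with the fewest reads in the series. Without replicate 3 at 0 DAP, 1 DAP was called higher than 0 DAP (log2 1.46, limma, adjusted p = 0.0249), against 1.02 ± 0.43 with all libraries (limma, adjusted p = 0.102).

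The gene fell at 2 DAP relative to 1 DAP by 1.65 ± 0.43 (SE) on the log2 scale (limma, adjusted p = 0.0118), where 10.6% of genes were called lower. Without that shallow 1 DAP library the difference was -1.19 and was not called (limma, adjusted p = 0.0626). At 4 DAP sut1 rose by 2.15 ± 0.43 relative to 3 DAP (limma, adjusted p = 0.00983), with a ratio of mean CPM of 16.9. edgeR did not call this rise (adjusted p = 0.137), and limma did not when any 1 of the following libraries was left out. The log2 change was 1.74 without the first 4 DAP library (limma, adjusted p = 0.0753), 2.13 without the second (limma, adjusted p = 0.0654) and 1.98 without the second 3 DAP library (limma, adjusted p = 0.0737). Relative to 0 DAP it rose by 1.83 ± 0.43 (limma, adjusted p = 0.00284), which edgeR did not call (adjusted p = 0.0813), and relative to 2 DAP by 2.47 ± 0.43 (limma, adjusted p = 0.000686; edgeR, adjusted p = 0.00334).

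Leaving aside mn1, whose call at 4 DAP the filter fixed, limma called SWEET4c and sut1 higher at 4 DAP than at 3 DAP, and edgeR called SWEET4c. The comparisons with 4 DAP share the same 3 libraries, so their calls are not separate evidence. Across the 5 stages from 0 to 4 DAP, an F test in limma called SWEET4c (adjusted p = 1.15e-05) and sut1 (adjusted p = 0.000568), as it did 53.1% of all genes. For mn1 this test too was fixed by the filter. The shares of genes called higher and lower depend on the scaling, and SWEET4c and sut1 kept their calls at 4 DAP under it. With columns rescaled to a common total, the median of all genes moved to 0.15 on the log2 scale for 4 against 3 DAP, 0.24 for 4 against 2 DAP, 0.13 for 4 against 0 DAP and -0.24 for 2 against 1 DAP. It then called 920 genes higher and 124 lower for 4 against 3 DAP (532 and 260 as deposited), and 5435 and 1175 for 4 against 2 DAP (3020 and 2722). The split was 805 and 144 for 3 against 2 DAP (600 and 237), 1304 and 5659 for 2 against 1 DAP (3162 and 3377), and 4233 and 2967 for 1 against 0 DAP (3285 and 3991). For 4 against 0 DAP, 6991 were higher and 5295 lower (5564 and 6259). The direction with more calls thus turned for 4 against 0 DAP and for 1 against 0 DAP.

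**Figure D2:**
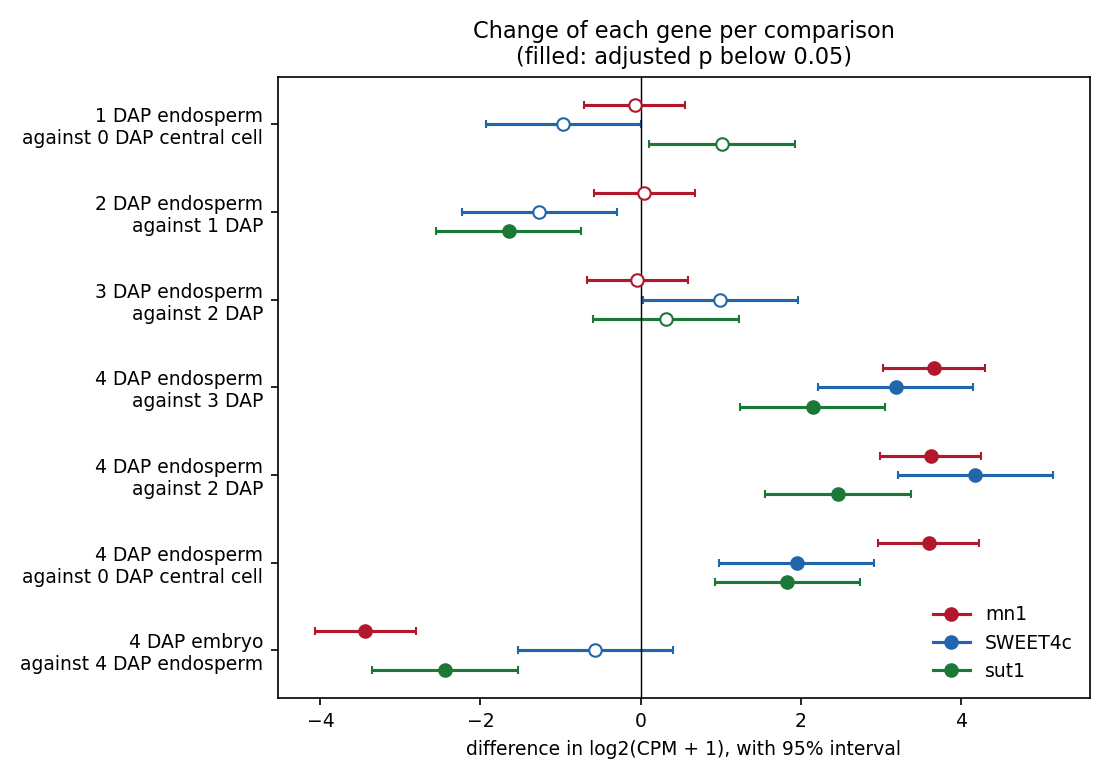
Change of each gene on the log2(CPM + 1) scale with its 95% interval, for each comparison, filled where the adjusted p in limma is below 0.05. The changes at 4 DAP relative to 3 DAP are 3.66 for mn1, 3.19 for SWEET4c and 2.15 for sut1, and in the embryo relative to the 4 DAP endosperm SWEET4c alone is unfilled. For mn1 the fill in every comparison with the 4 DAP endosperm was fixed by the filter on low genes and is a description.

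In the embryo, SWEET4c was found at levels that overlapped the 4 DAP endosperm, whereas mn1 and sut1 were near 0. SWEET4c had 5.60, 22.7 and 12.5 CPM in the embryo, against 16.1, 25.0 and 14.5 CPM in the 4 DAP endosperm. The lowest embryo value, 5.60 CPM, rests on 63 reads in the shallow replicate 1. The log2 difference was -0.57 with a 95% interval of -1.53 to 0.40 (limma, adjusted p = 0.423). A lower or a slightly higher level in the embryo both lie within that error. With 1 library left out the difference ran from -1.01 to -0.088 and was never called. The invertase gene mn1 had 0.533, 0 and 0.0595 CPM in the embryo, against 23.1, 11.6 and 5.81 CPM in the 4 DAP endosperm, with no overlap, as 38.9% of genes had. Its log2 difference of -3.44 ± 0.30 (SE; limma, adjusted p = 1.44e-07) is a description too, since mn1 was tested only because of the 4 DAP endosperm libraries in this comparison. The transporter sut1 had 0, 0 and 0.0992 CPM in the embryo, against 8.92, 4.72 and 2.11 CPM in the 4 DAP endosperm, a log2 difference of -2.44 ± 0.43 (limma, adjusted p = 0.000425), where 11.1% of genes were called lower.

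The genes were also set against each other within libraries. The log2 level of mn1 minus that of SWEET4c was -2.11, -4.57 and -3.67 in the embryo, against 0.50, -1.04 and -1.18 in the 4 DAP endosperm. For sut1 minus SWEET4c the values were -2.72, -4.57 and -3.61 in the embryo, against -0.78, -2.18 and -2.31 in the 4 DAP endosperm. The embryo and endosperm values did not overlap for either pair of genes, and the share of other gene pairs without overlap was not counted. In embryo replicate 2 both mn1 and sut1 were at 0 CPM, so both values of -4.57 reflect the SWEET4c level alone. With mn1 and sut1 near 0 in the embryo, these differences largely restate the levels above. These differences are a description: an exact two-sided permutation test of 3 against 3 libraries cannot give a p under 0.1, and the filter fixed the direction for mn1.

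The 12 transfer layer markers summed to 0.235 to 0.533 CPM in the embryo, against 279 to 1008 CPM in the 4 DAP endosperm, and 5 of the 12 were at 0 in all 3 embryo libraries. The embryo libraries that held SWEET4c reads thus held these markers at or near 0, with no single marker above 0.355 CPM. The markers of the embryo-surrounding region summed to 473, 890 and 864 CPM in embryo replicates 1, 2 and 3, in which SWEET4c had 5.60, 22.7 and 12.5 CPM. The part of that tissue in the SWEET4c level was not tested.

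The transfer layer markers, like mn1, were near 0 before 4 DAP, with sums of 0.114 to 1.31 CPM in the libraries of 0 to 3 DAP. Among the 4 DAP libraries their sum was 622.9 CPM in replicate 1, 1008 CPM in replicate 2 and 279.1 CPM in replicate 3, and all 12 were lowest in replicate 3. All 3 sugar entry genes were lowest in replicate 3 too. The share of all genes lowest in that library was not counted, so this shared order is a description. Replicate 1 was highest for mn1 and sut1, and replicate 2 for SWEET4c and for 10 of the 12 markers. The highest 4 DAP library was 3.98 times the lowest for mn1, 4.23 times for sut1, 3.61 times for the marker sum and 1.73 times for SWEET4c. The part of the amount of transfer layer tissue in these differences was not tested.

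**Figure D3:**
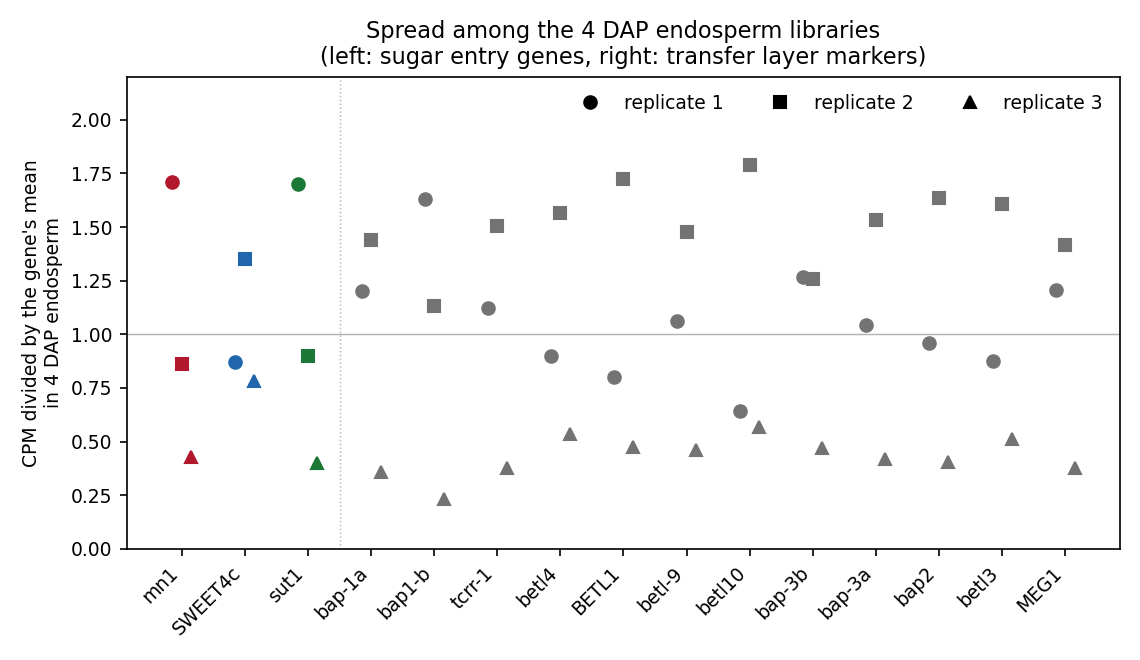
CPM in each 4 DAP endosperm library divided by the gene's mean over the 3 libraries, for mn1, SWEET4c, sut1 and the 12 transfer layer markers, with 1 marker shape per replicate. Replicate 3 is lowest for all 15 genes, though the share of all genes lowest there was not counted. SWEET4c spreads less than mn1 and sut1, with a coefficient of variation of 30.6% against 65.1% and 65.4%.

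Of 12 other genes of sucrose cleavage, transport and use, 11 were tested. They were found by name patterns among the 2121 identifiers that carry a gene name, so they are a part of the pathway. No other SWEET gene was on the list. With 11 genes tested, the counts are a description. At 4 DAP relative to 3 DAP, 1 was called higher, 1 lower and 9 were not called. The median log2 change was -0.08 in the list and -0.01 over all genes. Of all genes tested, 1.67% were called higher and 0.818% lower in this comparison. The gene called higher was sus2, a sucrose synthase, with 3.43 ± 0.737 CPM at 4 DAP and 0.361 ± 0.124 CPM at 3 DAP (SD, n = 3 each; limma, adjusted p = 0.0047). It is named here after its values were seen, as are incw1, ivr2 and MST1 below. The gene called lower was IVR1 (GRMZM2G394450), an invertase of the soluble type, with 1.42 ± 1.25 CPM at 4 DAP and 14.7 ± 3.68 CPM at 3 DAP (limma, adjusted p = 0.000326). The other cell wall invertase on the list, incw1, stayed at 0 to 0.74 CPM in all libraries and was not tested.

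IVR1 had group means of 6.77, 45.9, 22.8, 14.7 and 1.42 CPM from 0 to 4 DAP. It was called higher at 1 DAP than in the central cell (log2 2.58 ± 0.39, limma, adjusted p = 0.000156), where 10.3% of genes were. Its lowest stage mean was that of 4 DAP, the stage at which mn1 was highest. The sucrose transporter sut2 had means of 47.8, 37.6, 26.1, 37.9 and 31.1 CPM over the same stages, and no comparison called it.

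The sucrose synthases sh1 and sus1, which split sucrose inside the cell, were high at 0 and 1 DAP and low at 3 and 4 DAP. The means of sh1 were 44.5, 31.3, 7.62, 0.873 and 1.32 CPM from 0 to 4 DAP, and those of sus1 were 66.7, 108, 8.21, 0.883 and 0.870 CPM. Both were called lower at 2 DAP than at 1 DAP, together with sus2 and the soluble invertase gene ivr2. These were 4 of the 11 genes tested, against 10.6% of all genes called lower there. Then sh1 and sus1 were called lower again at 3 DAP than at 2 DAP, where 0.746% of all genes were. The fructokinase gene frk2, whose product phosphorylates fructose, had means of 21.5, 17.7, 24.7, 166 and 158 CPM. It rose at 3 DAP relative to 2 DAP, by 2.67 ± 0.36 on the log2 scale (limma, adjusted p = 0.000405), where 1.89% of genes were called higher.

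Relative to the central cell, 2 of the 11 genes were called higher at 4 DAP (sus2 and frk2) and 5 lower (IVR1, sh1, sus1, the fructokinase gene frk1 and the sucrose phosphate synthase gene sps1), against 17.5% higher and 19.7% lower over all genes. edgeR did not call sus2 there (adjusted p = 0.104). In the embryo relative to the 4 DAP endosperm, 2 were called higher and 2 lower, against 12.4% higher and 11.1% lower over all genes. The genes higher in the embryo were sh1, at 119.6 ± 32.4 CPM in the embryo and 1.32 ± 1.02 CPM in the 4 DAP endosperm, and sus1, at 108.8 ± 36.4 CPM in the embryo and 0.870 ± 0.821 CPM in the 4 DAP endosperm (limma, adjusted p = 1.22e-08 and 2.07e-09). The genes that limma called lower in the embryo were frk2 and the monosaccharide transporter gene MST1. The level of frk2 was 43.4 ± 20.3 CPM in the embryo and 158 ± 14.1 CPM in the 4 DAP endosperm. edgeR did not call MST1 (adjusted p = 0.0550). It also called 2 of the 11 genes lower, so its set differed from that of limma.

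**Figure D4:**
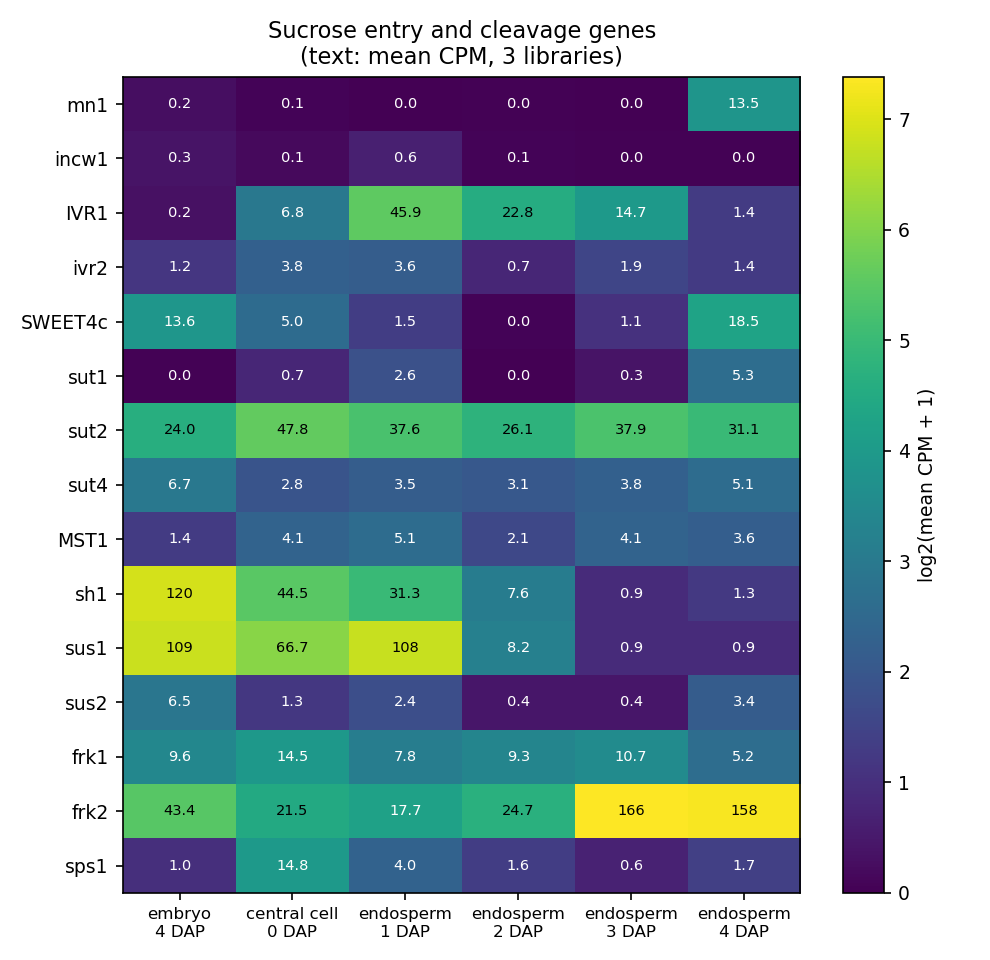
Mean CPM (numbers, n = 3) of the 3 sugar entry genes and 12 other genes of sucrose cleavage, transport and use in the 4 DAP embryo and at 0 to 4 DAP, with colour on a log scale. In the 4 DAP endosperm mn1, SWEET4c and sut1 have their highest stage means of 13.5, 18.5 and 5.25 CPM, where sh1 and sus1 are at 1.32 and 0.870 CPM and frk2 is at 158 CPM.

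The 5 named genes most like each of the 3, among those with a group mean of at least 10 CPM, were taken by Pearson's r of log2(CPM + 1) over the 18 libraries, as a description, since all genes share libraries and depth. For mn1 they were BURP7 (r = 0.993), the meg2 gene GRMZM2G094054 (0.990), bap-1a (0.989), a further meg2 gene, GRMZM2G088896 (0.986), and yuc (0.984), at ranks 1, 6, 8, 16 and 21 of all 31782 other genes tested, and 91 genes exceeded 0.9. For SWEET4c they were zmCL2-2 (r = 0.958), ARF16 (0.920), a pair of rfz1 genes (0.911 and 0.906) and ARF28 (0.885), at ranks 2, 4, 8, 13 and 26, and 15 genes exceeded 0.9. For sut1 no gene exceeded 0.9, and the closest were adh1 (0.759), bap1-b (0.758), CYPPDKZM2 (0.752), betl4 (0.737) and yuc (0.730), at ranks 25, 27, 31, 49 and 59. Among the 3 genes, r was 0.61 for mn1 and SWEET4c, 0.72 for mn1 and sut1, and 0.45 for SWEET4c and sut1. For mn1, SWEET4c was at rank 942 and sut1 at rank 394. For SWEET4c, mn1 was at rank 1592 and sut1 at rank 4204. For sut1, mn1 was at rank 94 and SWEET4c at rank 1536. Many other genes were thus closer to each of the 3 than the 3 were to each other.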

How the data were processed

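Per the submitters' processing notes, reads were handled with Trimmomatic, TopHat2 2.0.9, bedtools 2.17.0 and edgeR on B73 RefGen_v3. No source used here states the strand setting or how reads shared between genes were counted. The authors deposited 1 normalised signal value per gene and library. All values were whole multiples of 1 read within 0.001 reads, so whole reads were recovered. Column totals differed between libraries, so the values are CPM scaled by normalization factors and not plain CPM.

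Genes with at least 1 CPM in 3 libraries were tested on log2(CPM + 1) with limma 3.58.1 (R 4.3.3; trended variance, all 18 libraries, Benjamini-Hochberg adjustment over 31783 genes). edgeR 4.0.16 (quasi-likelihood) and DESeq2 1.42.0 on the recovered reads were alternatives, with other pseudocounts, filters, scalings, a replicate block and libraries left out. On simulated data for 4 against 3 DAP, limma recovered 182 of 200 changed genes among 29807 tested and called 8 unchanged ones. The simulation used equal fold sizes in genes that were not low, the same relative spread for every gene and independent libraries. It checks that the fit works and does not give the power or error rate in these data. Names came from a reference table of the assembly Zm-B73-REFERENCE-NAM-5.0, which matched 14444 of 38300 identifiers, so no coordinates are given. Pathway genes were named with values where a group mean reached 10 CPM, and the 5 most alike named genes were given per member. The members and lists were chosen with earlier results of these data known.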

Additional observations from a re-analysis of the deposited data

How the results depend on the processing

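Of 24 tests on the 3 genes, 16 kept direction and call in every run. These include mn1 tests, fixed by the filter or near 0 CPM. Values are log2 changes. Leaving out the 2 shallowest libraries, and 4 DAP libraries with no filter, was chosen after seeing the data. For sut1, 2 against 1 DAP lost its call with a pseudocount of 5 (-0.55) or without the 2 shallowest libraries (-1.19), and ran from -1.91 to -1.19 with 1 library left out. For sut1, 4 against 3 DAP lost it in edgeR (4.09) and DESeq2 (4.12), and without replicate 1 at 4 DAP with no filter (1.74), and ran from 1.74 to 2.57 with 1 library left out. For sut1, 4 against 0 DAP lost it in edgeR (2.85), DESeq2 (2.78) and edgeR with the replicate block (2.81). For sut1, 1 against 0 DAP ran from 0.56 to 1.46 with 1 library left out, called only without replicate 3 at 0 DAP. SWEET4c, 1 against 0 DAP, became called in DESeq2 (-1.72) and without all replicate 1 libraries (-1.58), and ran from -1.56 to -0.41 with 1 library left out. SWEET4c, 2 against 1 DAP, became called with a pseudocount of 0.25 (-2.58), columns rescaled to a common total (-1.35), edgeR (-4.84), DESeq2 (-4.96), only the groups compared (-1.26), the replicate block (-1.26; edgeR -4.66) and without all replicate 1 libraries (-1.30), and ran from -1.31 to -1.23 with 1 library left out, called in 4 of those fits, none of which left out a library of either stage. SWEET4c, 3 against 2 DAP, became called with a pseudocount of 0.25 (2.18), edgeR (4.31), DESeq2 (4.44) and edgeR with the replicate block (4.17). The uncalled mn1 value for 3 against 2 DAP ran from -0.062 to 0.0079 with 1 library left out, turning sign without replicate 3 at 2 DAP. The cause of these changes was not tested. Same-numbered libraries of different groups correlated at 0.0562 to 0.696 over 45 pairs, 44 over 0.1, in their deviations from the group means. The median was 0.354, against -0.301 for pairs with different numbers. Of 18 libraries, 16 correlated best with their own number, which points to pairing that the main tests leave out. As 1 pair was under 0.1 and no label ties the numbers, no block was used. The replicate block called 2739 genes for 4 against 3 DAP (edgeR 2484; 792 without), 2424 for 3 against 2 DAP (2833; 837), 10389 for 2 against 1 DAP (9999; 6539) and 9448 for 4 against 2 DAP (9837; 5742). For 4 against 3 DAP, DESeq2 called 1572, the fit of only the groups compared 515, that without the 2 shallowest libraries 1201, and that without replicate 2 at 4 DAP 201. For 3 against 2 DAP, DESeq2 called 2088 and the fit without replicate 3 at 3 DAP 359. Without replicate 2 at 4 DAP, 4 against 2 DAP had 3545. The groups compared alone gave 4646 for 1 against 0 DAP, against 7276, and a filter of 5 CPM gave 4843 for the embryo, against 7475. mn1 could not be tested under the filter without any 1 of the 4 DAP libraries, nor sut1 with a filter of 5 CPM.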
